A study of Homo sapiens with 4 samples.

Results

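NEAT1 and MALAT1 are neighbouring long noncoding RNA genes on the same strand of chromosome 11, and 7 of the 17627 poly(A) site clusters listed over the 4 libraries lay in them. A cluster was assigned to a member gene when its dominant site, the position with the most tags, fell in the span that GENCODE release 44 gives for that gene on GRCh38. NEAT1 (ENSG00000245532.11, chr11:65422774-65445540, plus strand, 22767 nt) held 2 clusters. MALAT1 (ENSG00000251562.11, chr11:65497640-65508073, plus strand, 10434 nt) held 5 clusters, and 52099 nt separated both genes. Antisense clusters in these spans numbered 0. The members were 2 of the 11572 genes with a listed cluster.

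The study asked whether l-lactate, the form of lactate that tumours mainly release, alters alternative polyadenylation in esophageal squamous cell carcinoma (ESCC) cell lines. PAS-seq, which reads tags from the 3′ ends of polyadenylated RNA, was done on 1 KYSE30 culture and 1 TE-1 culture given 20 mM l-lactate for 24 h, and on 1 control culture of each line labelled PBS. The cell line field of the control samples reads KYSE32 and TE-3, while their titles name the same lines as the treated samples, and the titles were followed. With 1 library per condition and line, no spread between replicates could be given within a line, and each difference below compares 2 libraries.

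Levels are in TPM, here tags of a cluster per 1000000 tags of its library, with no length correction because each transcript gives its tag at the 3′ end. The libraries held 7174991 (KYSE30 l-lactate), 7425554 (KYSE30 control), 8468959 (TE-1 l-lactate) and 10393800 tags (TE-1 control), and listed clusters took 92.5% to 93.1% of them. The lowest level listed was between 1.06 and 1.12 TPM. All intervals are 95% intervals that cover counting error only, since PCR reads without molecular identifiers are not independent molecules. Of 8 squamous markers, SFN was listed in all 4 libraries, KRT6A, TP63 and SOX2 in KYSE30 alone and KRT17 in TE-1 alone, while KRT5, KRT14 and DSG3 were listed in none. Simple epithelial markers (KRT8, KRT18, EPCAM, CDH1) were listed in all libraries, other than CDH1 in the TE-1 control. Of 5 fibroblast markers, DCN and COL1A1 were listed in TE-1 alone, at 3.66 to 7.12 TPM, and of 4 immune markers 0 were listed.

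NEAT1 RNA is the scaffold of paraspeckles, nuclear bodies built around it by the proteins NONO and SFPQ. The gene makes a short form that ends at a poly(A) site and a long form whose 3′ end is cut by RNase P and closed by a triple helix rather than a poly(A) tail. Cleavage factor Im (NUDT21 with CPSF6 or CPSF7) binds UGUA and favours the short form, and HNRNPK counters it. MALAT1 RNA sits in nuclear speckles, and its mature 3′ end is likewise cut by RNase P and ends in a genome-encoded A-rich tract held in a triple helix.

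The sequences below were chosen to show the hexamer AATAAA before the sites that have it, and the genome sequence after the MALAT1 sites that do not. They are the plus strand of GRCh38, 5′ to 3′. The first lines are the 30 bases up to and including a site, with AATAAA in capitals. The TGTA lines are 20 bases around each TGTA (UGUA in RNA) in the 100 nt before the NEAT1 short-form site, with TGTA in capitals. The last lines are the 30 bases after a site, with runs of at least 4 A in capitals.
NEAT1 cluster 1, chr11:65424791-65424820: gtttttttaaacttgaactttacttcgtta
NEAT1 cluster 2, chr11:65426497-65426526: agcacaAATAAAgtttgagttctaaactca
MALAT1 cluster 4, chr11:65503601-65503630: aatAATAAActatttttattagagaatgta
MALAT1 cluster 5, chr11:65506438-65506467: attttgtgtAATAAAaatggagaagctcta
NEAT1 TGTA, chr11:65426423-65426442: tgttgctcTGTAtggtaaga
NEAT1 TGTA, chr11:65426453-65426472: ttacgtcaTGTAcataatta
MALAT1 cluster 1, chr11:65499743-65499772: gaagAAAAAAgataaatttaaacctgAAAA
MALAT1 cluster 2, chr11:65502294-65502323: tttaataataatttAAAActactatagaaa
MALAT1 cluster 3, chr11:65502981-65503010: gaatAAAAgcgAAAAgaaatgAAAAtgtta

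AATAAA stood in the 50 nt before the dominant site of NEAT1 cluster 2 and of MALAT1 clusters 4 and 5, as it did for 66.4% of all clusters. Its last base lay 18, 21 and 15 nt before these sites. MALAT1 cluster 4 also had the variant ATTAAA, found before 19.8% of all clusters, 38 nt before its site. The other 4 member clusters had neither hexamer, whereas 83.1% of all clusters had at least 1 of them. TGTA occurred 2 times before the NEAT1 short-form site, 92 and 62 nt upstream, and 22.6% of all clusters had at least 2 in that window. The plus strand alone was searched, no other variant of the poly(A) signal was looked for, and the letters say nothing of whether a factor was bound.

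A-rich sequence was defined as at least 7 A in the 10 nt after the dominant site, or 6 A in a row. MALAT1 cluster 1, with 8 A in 10 nt, was the 1 of the 7 members that met this rule, which 1.62% of all clusters met. By the wider rule of at least 12 A in 20 nt, MALAT1 cluster 3 was A-rich too, giving 2 of 7 members beside 0.970% of all clusters. A-rich genome sequence is a place where oligo(dT) primers can start inside a transcript, and whether they did so here was not tested.

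**Figure D1:**
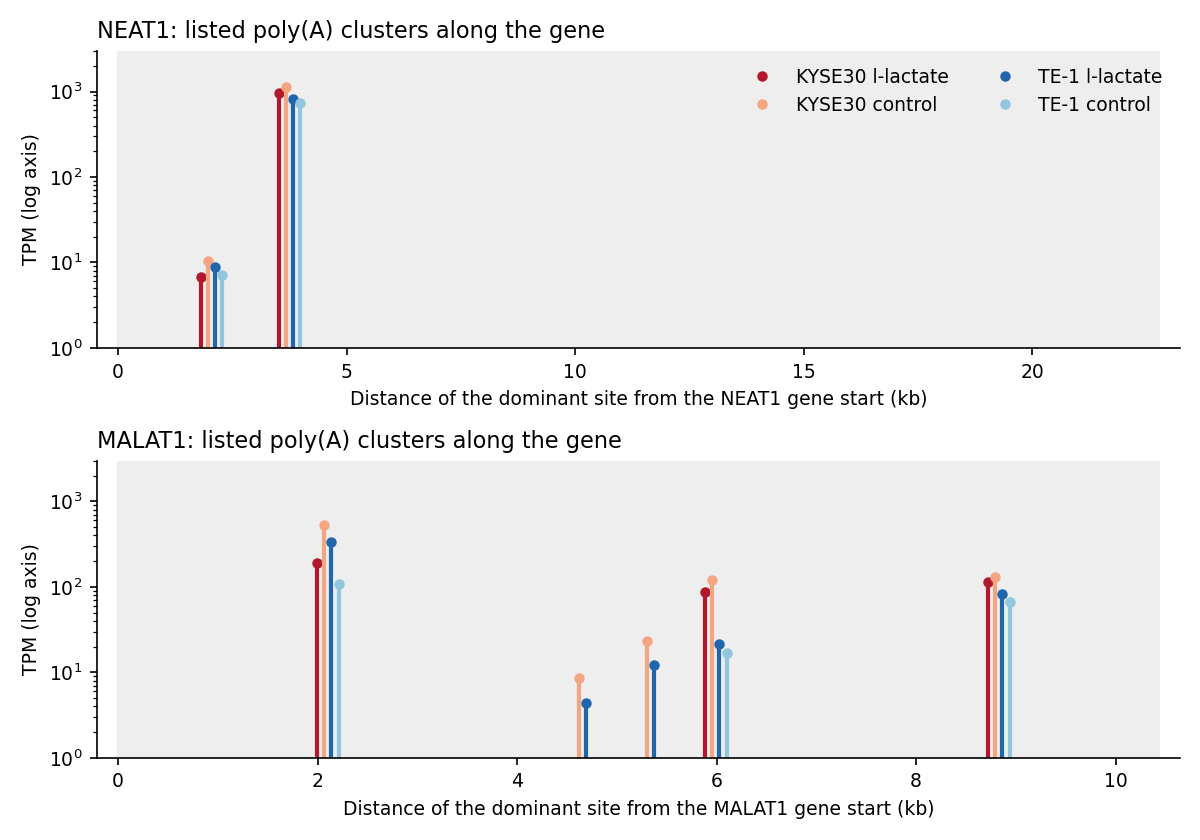
Level of each listed cluster in TPM (log axis) against the distance of its dominant site from the gene start in kb, for NEAT1 (top) and MALAT1 (bottom). The grey area is the gene, colours are the 4 libraries, and the bars of a cluster are moved apart sideways so that all can be seen. NEAT1 clusters lie in the first 4 kb of the gene, and MALAT1 clusters lie along most of it.

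The cluster with the short-form site gave nearly all NEAT1 tags. It spanned 602 nt, so tags upstream of its dominant site, described below, were counted in it. NEAT1 cluster 2 (chr11:65425931-65426532) had its dominant site at position 65426526, 3752 nt from the gene start and 13 nt past the annotated end of the transcript NEAT1-209. It had 962 TPM in KYSE30 l-lactate, 1139.8 in its control, 823 in TE-1 l-lactate and 743 in its control. Both KYSE30 libraries were above both TE-1 libraries.

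NEAT1 cluster 1 (chr11:65424812-65424827) lay 2046 nt from the gene start, upstream of the short-form site, and ended in TA with neither AATAAA nor ATTAAA before it. It had 6.83 TPM in KYSE30 l-lactate, 10.5 in the KYSE30 control, 8.74 in TE-1 l-lactate and 7.12 in its control. These levels rested on 49 to 78 tags. All 7 NEAT1 transcripts over this site have it in an exon.

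The short-form cluster held 99.3% of NEAT1 tags in KYSE30 l-lactate (Wilson interval 99.1% to 99.5%), 99.1% in the KYSE30 control (98.9% to 99.3%), 98.9% in TE-1 l-lactate (98.7% to 99.2%) and 99.1% in its control (98.8% to 99.2%). The share differed between l-lactate and control by 0.209 percentage points in KYSE30 (Newcombe interval -0.0806 to 0.491) and by -0.101 in TE-1 (-0.429 to 0.220). The share compares the short-form cluster with cluster 1 alone, so it was near 100% in each library and gives no measure of short-form against long-form RNA. Between the l-lactate libraries KYSE30 was 0.346 points above TE-1 (0.0356 to 0.662), and between the controls 0.0363 points (-0.260 to 0.337). The call for a change in share was set at 10 percentage points, which the leading cluster of 15% of 3062 genes with at least 2 clusters passed in KYSE30 and that of 16% of 3083 passed in TE-1, while 34.5% passed between the controls and 33.9% between the l-lactate libraries.

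In the 19014 nt between the short-form site and the annotated end of the long form (NEAT1-202), 0 clusters were listed in any library. The tables list only sites above the minimum the authors set, and the long form has no poly(A) tail, so these libraries give no level for it. The comparison of short-form with internal clusters thus rested on the 1 cluster upstream of the short-form site. Upstream sites joined into the short-form cluster were counted with it, and the spread of tags inside it is given below.

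For the whole gene, NEAT1 had 969.2 TPM in KYSE30 l-lactate, 1150.4 in the KYSE30 control, 832 in TE-1 l-lactate and 749.9 in its control. It ranked 129, 108, 156 and 172 among the listed genes of these libraries. Differences are log2 ratios of TPM after adding 1 TPM, and a ratio of at least 1.5 either way was called. In bulk cultures, fewer expressing cells and less RNA per cell cannot be told apart.

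With l-lactate NEAT1 was -0.25 from control in KYSE30 (interval -0.29 to -0.20) and 0.15 in TE-1 (0.10 to 0.20), and neither value was called. Such a call was made for 2.24% of genes as lower and 2.11% as higher in KYSE30, and for 1.58% and 2.58% in TE-1. In KYSE30 1256 of 9394 genes had a lower ratio than NEAT1, and in TE-1 2671 of 9180 had a higher one. NEAT1 therefore lay well inside the range of other genes in both lines.

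Between the controls, NEAT1 was 1.53-fold higher in KYSE30 than in TE-1 (log2 0.62, interval 0.57 to 0.66). A fold of at least 1.5 higher in KYSE30 was found for 30.1% of genes there and of at least 1.5 lower for 27.2%, and 2965 of 10185 genes exceeded NEAT1. Between the l-lactate libraries the difference was 0.22 (0.17 to 0.27), which was not called, beside 28.2% of genes called higher and 27.8% called lower. Line and library cannot be told apart in either comparison.

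Inside the NEAT1 short-form cluster, the tags were spread differently over the 4 libraries. The dominant site took 76.6% of the tags of the cluster in KYSE30 l-lactate, 73.1% in the KYSE30 control, 70.6% in TE-1 l-lactate and 64.2% in its control. It was 3.43 percentage points higher with l-lactate in KYSE30 (interval 2.05 to 4.80) and 6.42 points higher in TE-1 (4.91 to 7.93). Thus the share of the dominant site was higher with l-lactate in both lines. The share also fell over the libraries in the order in which their numbers of tags rose. In each line the l-lactate library had fewer tags than its control, so treatment and library size cannot be told apart here.

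Of the 1443 clusters above 100 TPM in both KYSE30 libraries and with the same dominant site, 52 had a larger increase in the share of the dominant site than NEAT1, and in TE-1 14 of 1547 did. Of the 1079 such clusters in both lines, 14 (1.30%) increased by at least 3.43 points in each line, NEAT1 included. The NEAT1 level outside the dominant site was 226 TPM in KYSE30 l-lactate, 306 in its control, 242 in TE-1 l-lactate and 266 in its control. These tags were thus lower in TPM with l-lactate in both lines, by 0.44 and 0.14 on the log2 scale, while the dominant site itself was -0.18 from control in KYSE30 and 0.29 in TE-1.

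The 10% to 90% quantile range of the tags followed the same order. It spanned 5 nt in KYSE30 l-lactate, 114 nt in the KYSE30 control, 324 nt in TE-1 l-lactate and 593 nt in the TE-1 control, beside a median of 6 nt over all clusters above 5 TPM. The upstream bound of the range lay 1, 110, 320 and 589 nt before the dominant site. The bounds at 110, 320 and 589 nt ended in TA and had neither AATAAA nor ATTAAA in the 50 nt before them. Since a quantile bound jumps from 1 site to the next when about 10% of tags lie upstream, these widths exaggerate the smaller differences in share.

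**Figure D2:**
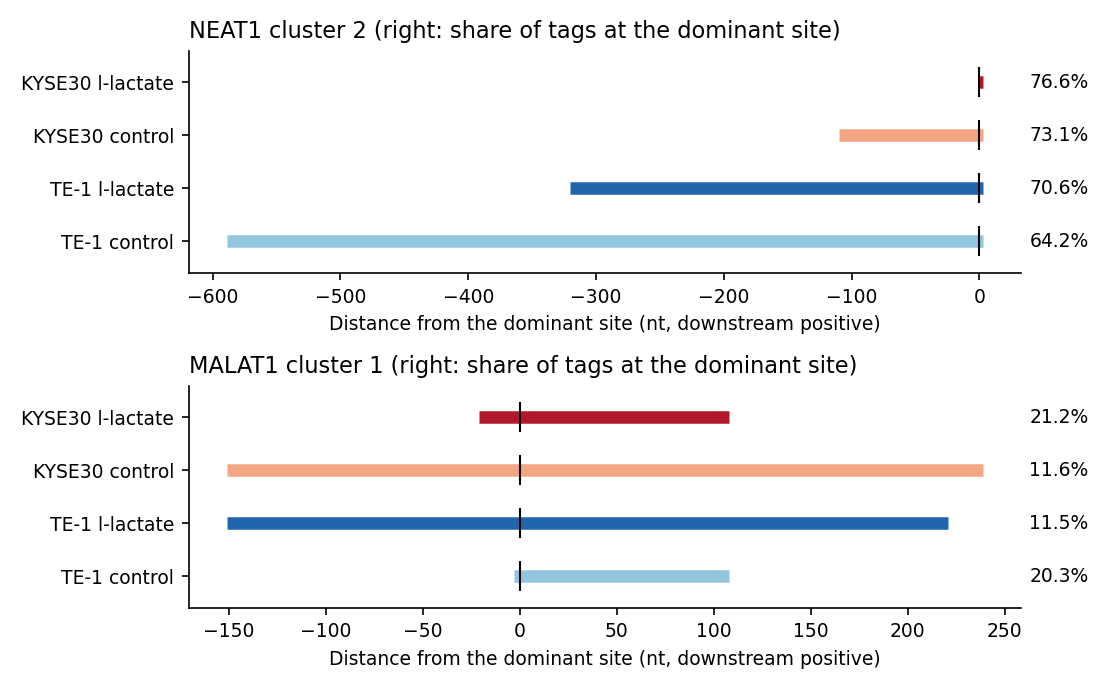
Range from the 10% to the 90% quantile of the tags of NEAT1 cluster 2 (top) and MALAT1 cluster 1 (bottom), in nt from the dominant site, with 1 bar per library and the share of tags at the dominant site (black line) at the right. The NEAT1 range reaches farther upstream in TE-1 than in KYSE30, and the MALAT1 range is widest in the KYSE30 control and in TE-1 given l-lactate.

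MALAT1 showed opposite differences in the 2 lines, and they were carried mostly by 1 cluster. The gene had 392 TPM in KYSE30 l-lactate and 806 in the KYSE30 control, against 451 in TE-1 l-lactate and 193 in its control. It was 2.05-fold lower with l-lactate in KYSE30 (log2 -1.04, interval -1.11 to -0.98) and 2.33-fold higher in TE-1 (1.22, 1.15 to 1.30). These are sums of tags at the listed sites. The mature MALAT1 end is made without a poly(A) tail, so the sums need not follow the level of the mature RNA. Of all genes, 36 of 9394 had a lower ratio in KYSE30 and 23 of 9180 a higher ratio in TE-1.

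A fold of at least 1.5 lower in KYSE30 and higher in TE-1 was found for 4 of 8134 genes (0.0492%), MALAT1 among them, and the reverse for 3 genes (0.0369%). The difference between the lines in the response was -2.26 on the log2 scale (interval -2.37 to -2.16), and 5 of 8134 genes had a more negative value. The other genes with this crossed pattern, named after their values were seen, were ERBB3, FBXL4 and CRK. ERBB3, a receptor tyrosine kinase gene, had 63.4, 96.3, 10.98 and 5.87 TPM in KYSE30 l-lactate, its control, TE-1 l-lactate and its control.

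MALAT1 cluster 1 (chr11:65499264-65500605) spanned 1342 nt around a dominant site 2102 nt from the gene start, with 6 A in a row shortly after it and neither AATAAA nor ATTAAA before it. The sequence of this cluster was 41.9% A, against 29.01% over the MALAT1 span, and held 5 runs of at least 6 A. Of 39 MALAT1 transcripts over the site, 29 have it in an exon and 10 in an intron.

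This cluster had 191 TPM in KYSE30 l-lactate, 523 in the KYSE30 control, 331 in TE-1 l-lactate and 109 in its control. The difference was -1.45 in KYSE30 (interval -1.55 to -1.37), with 5 of 11955 clusters lower, and 1.60 in TE-1 (1.505 to 1.71), with 4 of 11780 clusters higher. Calls took in 2.81% of clusters as lower and 2.75% as higher in KYSE30, and 2.24% as lower and 3.51% as higher in TE-1. The levels of the KYSE30 control and TE-1 l-lactate libraries were thus the 2 high ones, and those of the other libraries the 2 low ones.

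Its tags were also spread more widely where it was high. The 10% to 90% range spanned 130 nt in KYSE30 l-lactate, 391 in its control, 373 in TE-1 l-lactate and 112 in its control. The dominant site held 21.2%, 11.6%, 11.5% and 20.3% of the tags. Outside the dominant site the level was 150.2, 463, 293 and 86.8 TPM, and at the dominant site 40.4, 60.5, 38.1 and 22.1 TPM. The difference in level was therefore larger outside the dominant site (-1.62 in KYSE30, 1.74 in TE-1) than at it (-0.57 and 0.76). The authors excluded sites under 1 TPM, so fewer weak sites can be kept where the level of the cluster is low. The range, the share of the dominant site and the level outside it thus depend on that level. The part of this filter in the differences was not tested.

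MALAT1 clusters 2 (chr11:65502293-65502296) and 3 (chr11:65502980-65503051) were listed in the same libraries in which cluster 1 was high. Cluster 2 had 8.48 TPM in the KYSE30 control and 4.37 in TE-1 l-lactate, with the dominant site 3 nt apart in these libraries, and was not listed in the others. Cluster 3 had 23.6 TPM in the KYSE30 control and 12.3 in TE-1 l-lactate, and was not listed in the other libraries. Neither had AATAAA or ATTAAA before its site, and the 72 nt of cluster 3 were 54.2% A. An unlisted cluster is below the minimum of the tables, so no fold was computed.

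MALAT1 cluster 4 (chr11:65503621-65503638) had its dominant site at the annotated end of MALAT1-240, with AATAAA before it. Its level was 86.7 TPM in KYSE30 l-lactate, 120.5 in the KYSE30 control, 21.6 in TE-1 l-lactate and 16.7 in its control. The difference with l-lactate was -0.47 in KYSE30 (interval -0.63 to -0.33) and 0.35 in TE-1 (0.06 to 0.68), and neither was called. Both KYSE30 libraries were above both TE-1 libraries, by 2.78 between controls (2.61 to 3.09) and 1.96 between l-lactate libraries (1.76 to 2.25). Calls took in 27.2% of clusters as higher in KYSE30 and 25.6% as lower between controls, and 25.2% and 26% between l-lactate libraries.

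MALAT1 cluster 5 (chr11:65506466-65506468) had its dominant site 1 nt before the annotated end of MALAT1-228, also with AATAAA, and a run of 7 A lay within the 40 nt after it. Its level was 114 TPM in KYSE30 l-lactate, 130.0 in the KYSE30 control, 81.5 in TE-1 l-lactate and 67.2 in its control. The difference was -0.18 in KYSE30 (interval -0.32 to -0.05) and 0.28 in TE-1 (0.12 to 0.43). Neither was called, and between 97.0% and 98.0% of its tags lay at the dominant site.

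Summed over the clusters with AATAAA (4 and 5), MALAT1 had 201 TPM in KYSE30 l-lactate, 250.5 in its control, 103 in TE-1 l-lactate and 83.9 in its control. Summed over the clusters with neither hexamer (1 to 3), it had 191, 555, 348 and 109 TPM in the same order. With l-lactate the first sum was -0.32 from control in KYSE30 (interval -0.42 to -0.22) and 0.29 in TE-1 (0.16 to 0.43). The second was -1.54 (-1.63 to -1.45) and 1.67 (1.58 to 1.78). Clusters 2 and 3 entered the second sum as 0 where they were not listed, and cluster 1 alone gave -1.45 and 1.60. The signs were the same for both kinds of cluster, and the sizes differed.

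**Figure D3:**
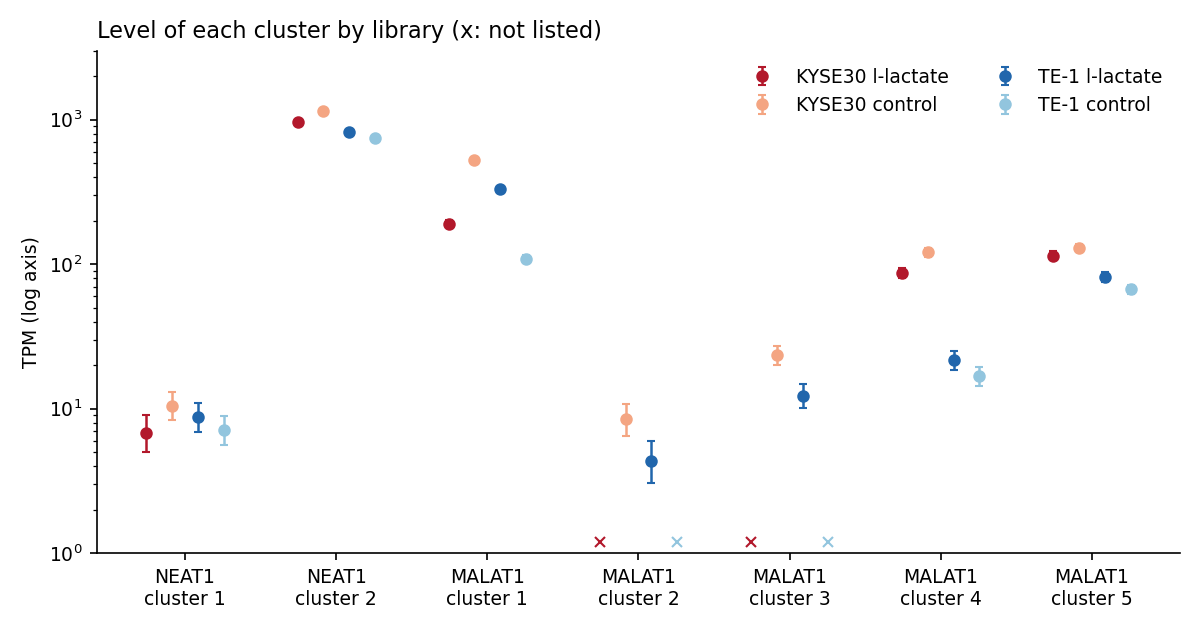
Level in TPM (log axis) of the 7 member clusters in the 4 libraries (colours), with 95% counting intervals where wider than the point, and a cross for a cluster not listed. MALAT1 cluster 1 is higher, and clusters 2 and 3 are listed, in the KYSE30 control and TE-1 l-lactate libraries, while MALAT1 clusters 4 and 5 and NEAT1 cluster 2 are higher in KYSE30 than in TE-1.

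The MALAT1 calls turned on the A-rich cluster. Without it, the MALAT1 gene level differed with l-lactate by -0.49 in KYSE30 and 0.51 in TE-1, below the fold that was called. With the TPM of dominant sites alone the values were -0.41 and 0.50. Both kept their sign.

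Other A-rich clusters, counted without the members, gave a mixed picture. In KYSE30 5.75% of 174 were called lower with l-lactate and 1.72% higher, against 2.76% and 2.77% of clusters that were not A-rich. In TE-1 4.76% of 168 were called lower and 4.17% higher, against 2.21% and 3.49%. By the rule of 12 A in 20 nt, 7.37% of 95 were lower and 1.05% higher in KYSE30, against 2.77% both ways of the rest. By that rule 6.38% of 94 were lower and 12.8% higher in TE-1, against 2.21% and 3.42%. With 6 A in a row within 10 nt before or after the site, 3.76% of 133 were lower and 3.01% higher in KYSE30, against 2.79% and 2.75% of the rest. By this rule 4.88% of 123 were called each way in TE-1, against 2.21% of the rest as lower and 3.48% as higher. These shares rest on few clusters. In TE-1 the higher calls were 7 of 168 by the first rule and 6 of 123 by the third, near the shares of the rest. By the rule of 12 A in 20 nt they were 12 of 94, above the share of the rest. The median ratio of A-rich clusters was 0.02 in KYSE30 and 0.03 in TE-1 by the first rule, beside 0.00 and 0.04 for the rest. All A-rich clusters together held 1.08%, 1.10%, 1.197% and 1.16% of the listed TPM in KYSE30 l-lactate, its control, TE-1 l-lactate and its control. The part of priming inside transcripts in the MALAT1 result was not tested.

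The crossed pattern of MALAT1 cluster 1, lower in KYSE30 and higher in TE-1 by at least 1.5-fold, was shared by 10 of 9784 clusters (0.102%), MALAT1 cluster 1 included. The reverse was found for 3 clusters (0.0307%). Of these 10, 2 were A-rich, the other being an HSP90AA1 cluster with 1.67, 15.1, 25.4 and 2.12 TPM in KYSE30 l-lactate, its control, TE-1 l-lactate and its control. HSP90AA1, a stress-inducible chaperone gene with pseudogene copies, so that its counts are uncertain, was named after its values were seen.

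**Figure D4:**
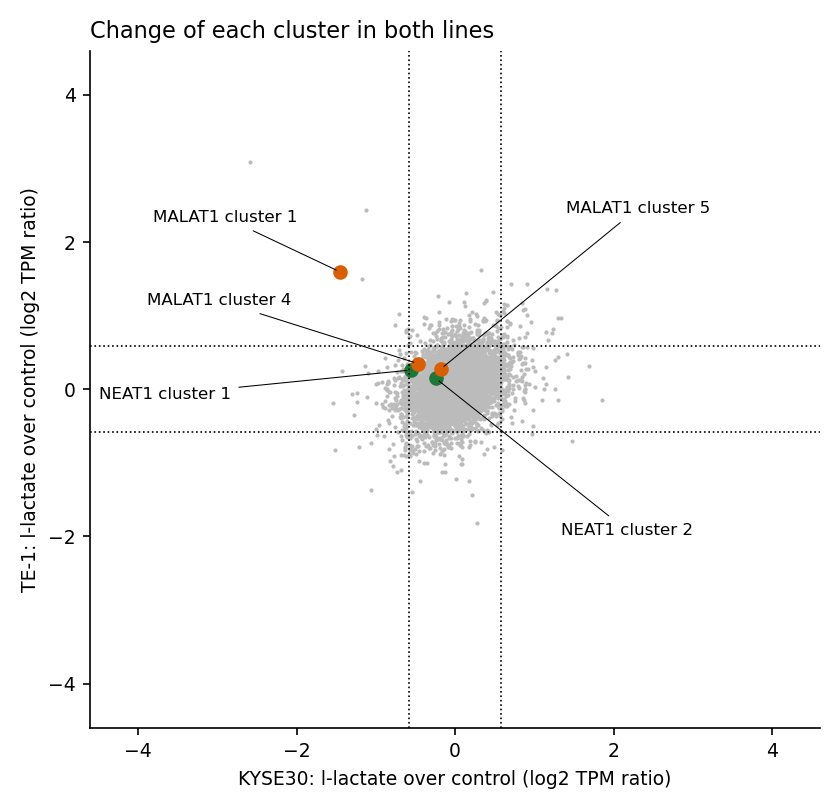
Log2 ratio of l-lactate to control in KYSE30 (horizontal) and in TE-1 (vertical) for 9784 clusters listed in all 4 libraries and tested in both lines (grey), with the 5 member clusters among them in colour and dotted lines at a fold of 1.5. MALAT1 cluster 1 is at -1.45 and 1.60, and the other member clusters are inside the dotted lines on both axes.

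The make-up of MALAT1 tags differed accordingly. Cluster 1 held 48.7% of MALAT1 tags in KYSE30 l-lactate (Wilson interval 46.8% to 50.5%), 64.9% in its control (63.7% to 66.1%), 73.4% in TE-1 l-lactate (72.0% to 74.8%) and 56.5% in its control (54.3% to 58.6%). The share with l-lactate differed by -16.3 percentage points in KYSE30 (Newcombe interval -18.5 to -14.05) and by 17.0 points in TE-1 (14.4 to 19.5). Both passed the 10 points that 15% and 16% of genes passed in these lines. Taken at dominant sites alone, these differences were -2.30 and 4.79 points, under 10 points in both lines.

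The shares of clusters 4 and 5 moved against that of cluster 1, since shares sum to 100%, while their levels differed with the same sign as its level. Cluster 5 held 29.2% of MALAT1 tags in KYSE30 l-lactate, 16.1% in its control, 18.1% in TE-1 l-lactate and 34.8% in its control. Cluster 4 held 22.1%, 15.0%, 4.79% and 8.68% in the same order. The ratio of cluster 4 to cluster 5 was 0.758 in KYSE30 l-lactate (interval 0.682 to 0.842), 0.927 in its control (0.846 to 1.017), 0.265 in TE-1 l-lactate (0.224 to 0.313) and 0.249 in its control (0.210 to 0.295). Use of these sites relative to each other thus differed between the lines more than between the conditions, and the KYSE30 intervals did not overlap those of TE-1. The intervals of the conditions narrowly failed to overlap in KYSE30 too, while in TE-1 they overlapped. They cover counting error of single libraries, and no such ratio is given here for other genes.

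**Figure D5:**
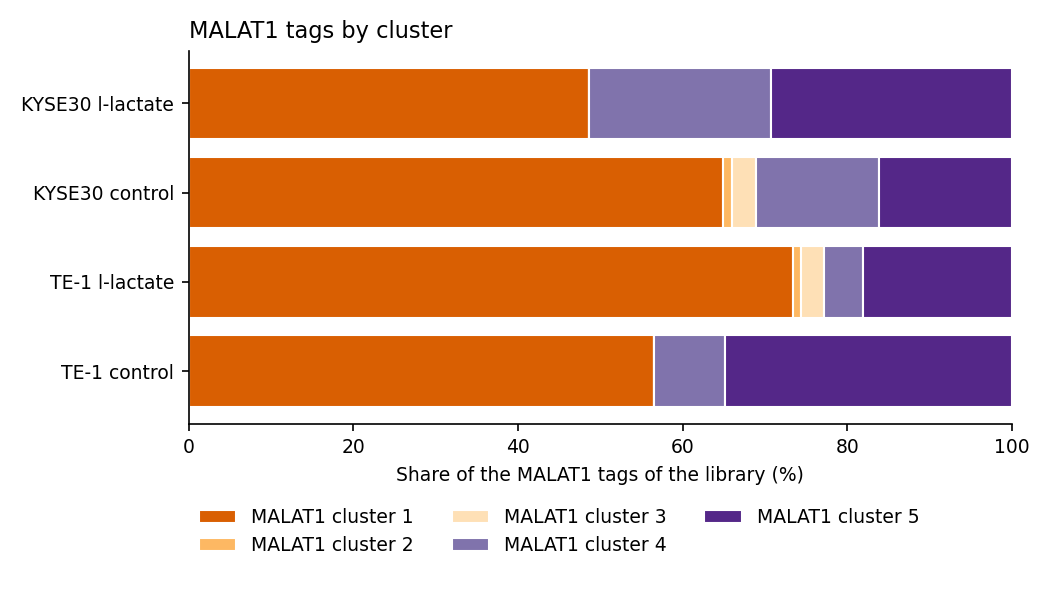
Share of the MALAT1 tags of each library (%) in each of the 5 MALAT1 clusters, with 1 bar per library. Cluster 1 takes 48.7% to 73.4%, clusters 2 and 3 appear in the KYSE30 control and TE-1 l-lactate bars, and cluster 4 takes more in KYSE30 than in TE-1.

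Between the lines, MALAT1 was 4.16-fold higher in the KYSE30 control than in the TE-1 control (log2 2.06, interval 1.99 to 2.14), with 995 of 10185 genes higher still. Between the l-lactate libraries it was -0.20 (-0.27 to -0.13), which was not called. Without the A-rich cluster these values were 1.74 and 0.74, so the second turned in sign and was then called higher in KYSE30, while for the A-rich cluster alone it was -0.79 and called lower. NEAT1 had 2.47 times the MALAT1 level in KYSE30 l-lactate, 1.43 times in its control, 1.84 times in TE-1 l-lactate and 3.89 times in its control, as tags at listed sites. Since both genes make RNA that ends without a poly(A) tail, these are not ratios of whole RNA.

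The other genes of these RNAs' biology were read from the same libraries. Of all genes, 2.24% were called lower and 2.11% higher with l-lactate in KYSE30, and 1.58% and 2.58% in TE-1. In lists this small, a count of 0 or 1 is near that background. Of 31 paraspeckle protein genes tested, 0 were called in KYSE30, with differences from -0.34 to 0.33, and in TE-1 1 was called lower and 0 higher. Their median was 0.02 in KYSE30 and 0.07 in TE-1, beside 0.00 and 0.04 over all genes. The gene called lower in TE-1 was RBM7, with 3.07 TPM against 6.16. SFPQ, which binds NEAT1 with NONO, had 416, 408, 578 and 569.9 TPM in KYSE30 l-lactate, its control, TE-1 l-lactate and its control, and NONO had 557, 585, 628 and 674 TPM. The cold-inducible RNA-binding protein genes RBM3 and CIRBP were lower with l-lactate in TE-1 by 0.41 and 0.40, under the fold that was called.

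Of 10 genes that bear on short-form polyadenylation, 0 were called in KYSE30 and 1 was called higher in TE-1, counts near the background given above. That gene was CPSF6, the larger cleavage factor Im subunit, with 283 TPM against 168 in TE-1 (log2 0.75, interval 0.66 to 0.84) and 178 against 140.5 in KYSE30 (0.34, 0.22 to 0.46). NUDT21, the subunit that binds UGUA, had 90.7, 87.5, 96.8 and 100.3 TPM in KYSE30 l-lactate, its control, TE-1 l-lactate and its control. HNRNPK, which counters the short form and is also in the paraspeckle list, had 766, 783, 997 and 999 TPM. NUDT21 and HNRNPK thus differed by at most 0.05 on the log2 scale with l-lactate, in either line.

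Of the RNase P and tRNase Z genes, 0 of 10 were called in KYSE30 and 1 of 11 in TE-1, again near the background. RPP21, an RNase P protein subunit gene, had 86.2 TPM with l-lactate against 47.9 in TE-1 (log2 0.83, interval 0.68 to 1.014) and 157 against 168 in KYSE30 (-0.10, -0.22 to 0.02). ELAC2, the tRNase Z that trims the small RNA cut from MALAT1, had 278, 248, 127 and 123 TPM in KYSE30 l-lactate, its control, TE-1 l-lactate and its control.

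Of the nuclear speckle genes, 0 of 19 were called in KYSE30 and 0 of 21 in TE-1, with medians of 0.00 and 0.09. SRSF1, a splicing factor that binds MALAT1, had 459, 437, 684 and 643 TPM in KYSE30 l-lactate, its control, TE-1 l-lactate and its control. Of genes for partners and stability of MALAT1, 0 of 9 and 0 of 8 were called. Counts of 0 in both lists are near the background. METTL16, which binds the MALAT1 triple helix, had 11.8 TPM against 9.43 in KYSE30 and 17.9 against 17.6 in TE-1.

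A comparison list of lncRNA genes and TUG1, which is annotated as protein-coding, gave 0 of 16 calls in KYSE30 and 0 of 18 in TE-1. Over all other lncRNA genes, 45 of 463 tested were called lower and 20 higher in KYSE30, and 36 of 419 were called lower and 30 higher in TE-1, beside 2.24% and 2.11% of all genes in KYSE30 and 1.58% and 2.58% in TE-1. The MALAT1 differences were within the range of these genes, which ran from -2.85 to 1.63 in KYSE30 and from -2.76 to 2.69 in TE-1.

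Genes within 500 kb of either member gave 0 calls of 34 tested in KYSE30, where 2.24% of all genes were called lower and 2.11% higher, so that a count of 0 is near the background. In TE-1 1 of 35 was called higher (SLC25A45, 13.6 TPM against 8.47) and 1 lower (CCDC85B, 19.6 against 34.9). Their median was -0.06 in both lines. FAU, a ribosomal protein fusion gene, had 1297, 1414, 1117 and 1282 TPM in KYSE30 l-lactate, its control, TE-1 l-lactate and its control, and CFL1, the actin-severing cofilin gene, had 391, 379, 369 and 375.

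The genes with the pattern most like NEAT1 over the 4 libraries were FNIP1, MAU2 and REEP4, at distances of 0.036, 0.053 and 0.056 from it. The distance was Euclidean on centred log2 values, over 4617 genes above 20 TPM in all libraries, and its median was 0.64. For MALAT1 the nearest were PTGES, RPP21 and TFAP2C, at 0.77, 0.82 and 0.82 with a median of 1.503. This distance grows with the size of the differences between libraries, which were larger for MALAT1. The distances from NEAT1 and from MALAT1 thus cannot be compared with each other. With 4 libraries, the likeness rests on 4 points.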

How the data were processed

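PAS-seq tags were measured in 4 libraries. Per the paper's methods, the authors trimmed reads with the FASTX-Toolkit, aligned them to GRCh38 with HISAT2 and called sites with CAGEr. Sites under 1 TPM were excluded, sites within 24 nt were clustered, single-site clusters under 3 TPM were removed, and clusters above 5 TPM within 500 nt were joined further. The joining can merge distinct poly(A) sites. The deposited values are RPM, tags of a cluster per 1000000 tags of its library, called TPM by the authors. The files also hold positions, the dominant site and quantile positions.

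Whole tags were recovered from the steps between values: at least 99.99% of values were whole within 0.0011 TPM. Since the TPM were not accepted as recovered whole reads in a check of units, these tags gave library sizes, tag numbers and counting intervals, and no count test was run. Clusters were joined over libraries by their number. Positions were taken 1-based, and 16717 of 17627 clusters were assigned to a GENCODE release 44 gene by overlap with a 3′ UTR, an exon or the body, then within 24 nt past the end. Shares carried Wilson intervals, share differences Newcombe intervals, and log2 ratios exact conditional Poisson intervals. Genes and clusters were compared above 5 TPM in at least 1 library compared, with a pseudocount of 1 TPM. Scripts used Python 3.11.15, pandas 2.3.3, NumPy 2.4.6 and SciPy 1.17.1, with R 4.3.3 and limma 3.58.1 for 1 added fit over both lines, and were tested on simulated data.

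Dose and time came from the paper's methods. The members and gene lists were chosen with earlier results of these data known. Named genes were the members, up to 6 genes per list by highest mean TPM, any past the fold the same way in both lines, up to 6 neighbours, and the 3 nearest in pattern. Other genes (RBM3, CIRBP, RBM7, NUDT21, CPSF6, RPP21, METTL16, ERBB3, FBXL4, CRK, HSP90AA1, SLC25A45, CCDC85B) were named after their values were seen or for their known role. Alternatives varied scaling, pseudocount, cluster filters and A-rich rules.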

Additional observations from a re-analysis of the deposited data

Results flagged for a closer look

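Results are given here where l-lactate and control differed one way in KYSE30 and the other way in TE-1. Each ratio also had a counting interval with both bounds of the same sign. NEAT1 cluster 1 was left out by this rule, at -0.56 in KYSE30 and 0.26 in TE-1 (interval -0.19 to 0.78). Each line had 1 library per condition, so the difference between the lines was not tested. For MALAT1 the KYSE30 ratio minus the TE-1 ratio was -2.26 on the log2 scale, and for its A-rich cluster 1 it was -3.05, with 2 of 9784 clusters more negative. For MALAT1 cluster 4 the value was -0.82 and for cluster 5 it was -0.46. For NEAT1 it was -0.40 and for its short-form cluster -0.39, and 811 of 8134 genes and 1117 of 9784 clusters had a more negative value.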

How the results depend on the processing

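Of 104 alternative log ratios and shares, 79 lay within the counting interval of the reported value and 25 outside it. Many of the 79 could not differ from the reported value. Both NEAT1 clusters are listed in all libraries, above 5 TPM and not A-rich, so the cluster filters and A-rich rule left NEAT1 as it was. The count of 79 is thus no measure of how stable the values are. With the TPM of dominant sites, the NEAT1 gene level was -0.18 (l-lactate in KYSE30), 0.28 (l-lactate in TE-1), 0.80 (KYSE30 against TE-1, controls) and 0.34 (the same, l-lactate). In this order of comparisons MALAT1 had -0.41, 0.50, 1.55 and 0.64 with dominant sites, -0.49, 0.51, 1.74 and 0.74 without A-rich clusters, and -1.45, 1.60, 2.25 and -0.79 with the leading cluster alone. Without clusters with 12 A in 20 nt, an alternative chosen after seeing the data, it had -0.36, 0.35, 1.61 and 0.90. The fold calls of MALAT1 with l-lactate were lost in both lines without A-rich clusters by either rule and with dominant sites, and in these settings the last comparison changed sign and was called higher in KYSE30. With the leading cluster alone it was called lower. The MALAT1 leading share differed by -19.0 and 19.8 points over clusters listed in all libraries, and by -2.30 and 4.79 points with dominant sites. The NEAT1 share between the l-lactate libraries was 0 points apart over the first 5 kb of the gene, since all its clusters lie there. The A-rich count was 2 of 7 by the 12 A rule. Scaling, the pseudocount and overlap with the span moved no value beyond its interval. A limma fit of both lines with line as a block, chosen after seeing the data and with 1 residual degree of freedom, gave a mean l-lactate difference of -0.05 for NEAT1 (SE 0.088, adjusted p = 0.92) and 0.09 for MALAT1 (SE 0.38, adjusted p = 0.97), whose values had opposite signs in the lines. These SEs were moderated by limma with the variance of other genes, so they do not give the spread of responses between the lines. The fit called 0 of 10440 genes, with 1020 at an unadjusted p under 0.05. No replicate could be left out within a line, since each condition had 1 library. Counting error limits NEAT1 cluster 1 and MALAT1 clusters 2 and 3 most.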

Other observations

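Between the end of NEAT1 and the start of MALAT1, 1 same-strand cluster was listed (chr11:65456583-65456871), in the lncRNA gene ENSG00000291174. Its dominant site was at 65456593, 11053 nt past the NEAT1 end, in both TE-1 libraries and at 65456871, the other end of the cluster, in both KYSE30 libraries. It had 1.53 TPM in KYSE30 l-lactate, 1.62 in its control, 15.2 in TE-1 l-lactate and 18.1 in its control. Its level was thus higher in both TE-1 libraries than in both KYSE30 libraries, the reverse of NEAT1 and of MALAT1 clusters 4 and 5.

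Of the crossed clusters, 2 belonged to RPS24, a small ribosomal subunit protein gene with pseudogene copies, so that its counts are uncertain, and neither was A-rich. One had 2.23, 6.06, 15.4 and 2.02 TPM in KYSE30 l-lactate, its control, TE-1 l-lactate and its control, and the other had 6.13, 15.1, 21.6 and 7.02 TPM. They were named after their values were seen.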
